A study of Mus musculus with 78 samples.

Results

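The lungs of mice killed at lights off, after a light phase in which they were left to sleep, were compared with the lungs of mice killed at lights on, before that phase began. All samples labelled SS 12 h (spontaneous sleep) and CTL 0 h (control) were taken, which gave 18 of the 78 lung arrays of the series, 9 in each group, with 1 array per mouse. All were male C57BL/6J mice about 10 weeks old that had received food only in the dark for 14 days, and both groups were killed by cervical dislocation. The SS 12 h mice were undisturbed and kept without food through the light phase, and the CTL 0 h mice were undisturbed and came from the end of the dark, feeding phase. Sleep was not distinguished from quiet rest by brain recordings. Hours of rest, time of day and hours without food differed together between the groups and cannot be told apart in this comparison. Whole lung RNA was hybridized to Mouse Gene 1.0 ST arrays of Affymetrix, and values are log2 intensities after robust multi-array averaging (RMA) by the authors. A difference is SS 12 h minus CTL 0 h on the log2 scale, so that 1 is a doubling. A gene was called when its adjusted p from limma was under 0.01 over all 35556 probe sets.

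Nearly every cell of the body keeps a molecular clock. BMAL1, the product of Arntl, pairs with CLOCK or NPAS2 and switches on genes that hold an E-box, among them the Per and Cry genes, whose proteins then shut the pair off. A second loop runs through the REV-ERB repressors (Nr1d1, Nr1d2) and the ROR activators, which act in turn on Arntl through RORE sites, and another through DBP, TEF, HLF and NFIL3, which share D-box sites. The clock of the lung is set by the brain and by glucocorticoid hormones of the adrenal gland, which in mice rise toward lights off. It is known for timing airway inflammation, in part through club cells.

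Lung markers were high in all 18 arrays. Sftpc, the surfactant protein of alveolar type 2 cells, averaged 13.26 ± 0.04 in SS 12 h lungs and 13.23 ± 0.10 in CTL 0 h lungs (SD, n = 9 each), and Cyp2f2, a club cell enzyme, averaged 13.17 ± 0.02 in SS 12 h lungs and 13.12 ± 0.07 in CTL 0 h lungs. In the labels array 81 follows array 8 and comes before array 10. When the labels' sequence of groups was instead run through the array numbers in rising order, passing over 9 but not over 37 and 42, numbers that no array analysed here carries, arrays 15 and 32 (labelled SS 12 h) took the place of SS 9 h, array 36 (labelled CTL 0 h) that of SS 12 h and array 56 (labelled CTL 0 h) that of SS 3 h. Arrays of other groups changed place as well, and no label states such a shift. The library labelled CTL 0 h with number 36 went against its label. Of 1959 genes called without it, it lay nearer the SS 12 h median than the CTL 0 h median in 1828 (93.3%). Array 56 lay nearer the SS 12 h median in 537 of 1922 genes called without the 4 arrays, array 15 in 1480 of them and array 32 in 1225. Groups are used as labelled, and results are given with all 18 arrays and with the 14 that remain without these 4.

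With all 18 arrays, 1109 of 18820 genes differed (5.89%), 662 higher (3.52%) and 447 lower (2.38%) in SS 12 h lungs. Without the 4 arrays 1922 genes differed (10.2%), 882 higher (4.69%) and 1040 lower (5.53%), so that the balance between directions depends on those arrays. Of these genes, 1032 were called in both fits, 606 higher and 426 lower, each with the same sign. Leaving out array 36 alone gave 1015 higher and 944 lower. Most differences were small. The median size among called genes was 0.36 with 18 arrays, and 33 genes rose and 16 fell by at least 1. The median difference over all genes was 0.003. Counts of called genes in the lists below stand beside these shares of all genes, 3.52% higher and 2.38% lower with 18 arrays.

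Of the activators of the clock, Arntl and Npas2 fell most. With 18 arrays Arntl, the BMAL1 gene, had the largest difference of all genes called in both fits, and its partner Npas2 came next among those that fell. Arntl ranged from 5.45 to 6.22 in SS 12 h lungs (median 5.75), against 5.80 to 9.51 in CTL 0 h lungs (median 9.33). The 5.80 is array 36, and the other 8 control lungs lay at 8.75 or more, above every SS 12 h lung. The difference was -3.09 (SE 0.37, adjusted p = 0.000351), and -3.59 (SE 0.09, adjusted p = 1.62e-12) without the 4 arrays, which is a 12.1-fold lower intensity.

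Npas2, the CLOCK paralog, ranged from 6.18 to 6.73 in SS 12 h lungs (median 6.49), against 6.54 to 10.08 in CTL 0 h lungs (median 9.89). Again array 36 was the only control among the SS 12 h values, with the other controls at 9.33 or more. The difference was -3.07 (SE 0.35, adjusted p = 0.000351). Clock itself moved far less, by -0.63 (SE 0.09, adjusted p = 0.000424). Rora, which encodes an activator of Arntl, was the 1 member of its list that rose, by 0.35 (SE 0.05). Of the 6 measured activator genes 3 fell and 1 rose, against 2.38% and 3.52% of all genes, with the same counts without the 4 arrays. Arntl2, the BMAL2 gene, and Rorb did not pass (0.07 and -0.06, adjusted p = 0.614 and 0.624).

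**Figure D1:**
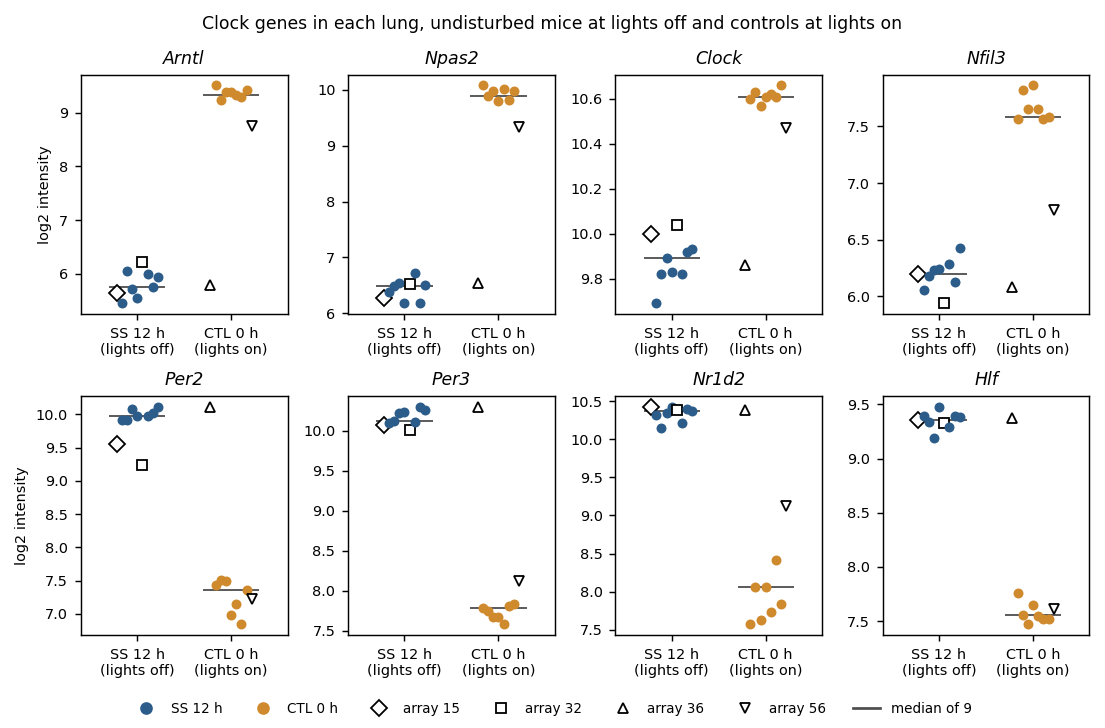
Log2 intensity of 8 clock genes in each of the 9 SS 12 h lungs (left of each panel) and 9 CTL 0 h lungs (right), with the median of each group as a line and arrays 15, 32, 36 and 56 as open symbols. In all 8 panels array 36 lies within 0.01 of the range of the SS 12 h lungs or inside it, and the remaining 8 control lungs lie apart from them.

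The repressors moved the other way. Of 9 measured repressor genes 8 rose and none fell, with a median difference of 1.48, and all 9 rose without the 4 arrays. Per2, which encodes a PERIOD protein that blocks the BMAL1 pair, ranged from 9.24 to 10.11 in SS 12 h lungs (median 9.97), against 6.84 to 10.12 in CTL 0 h lungs (median 7.36). Without array 36, at 10.12, the highest control was 7.51 and the groups did not overlap. The lowest SS 12 h values of Per2 were those of arrays 32 and 15. Its difference was 2.30 (SE 0.32, adjusted p = 0.000424), and 2.75 (SE 0.10, adjusted p = 1.27e-10) without the 4 arrays.

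Per3 had the smallest adjusted p of all genes without the 4 arrays. It ranged from 10.01 to 10.29 in SS 12 h lungs (median 10.12), against 7.58 to 10.30 in CTL 0 h lungs (median 7.79). The controls other than array 36 lay at 8.12 or less. The difference was 2.10 (SE 0.27), and 2.46 (SE 0.05, adjusted p = 1.55e-13) without the 4 arrays. Per1 was looser, with 10 to 10.68 in SS 12 h lungs (median 10.44), against 7.32 to 10.58 in CTL 0 h lungs (median 8.06), and it differed by 2.06 (SE 0.31).

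Nr1d2, the REV-ERB beta gene, ranged from 10.15 to 10.43 in SS 12 h lungs (median 10.37), against 7.57 to 10.38 in CTL 0 h lungs (median 8.06). Array 36 held the 10.38, and array 56, at 9.12, was the next highest control. The difference was 2.02 (SE 0.28, adjusted p = 0.000458). Of the other repressors, Bhlhe41 (DEC2) rose by 1.48 (SE 0.18), Ciart (CHRONO) by 1.39 (SE 0.20), Cry2 by 0.86 (SE 0.10) and Bhlhe40 (DEC1) by 0.65 (SE 0.11).

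Cry1, the cryptochrome whose transcript is known to peak late, was the member that missed. It ranged from 7.75 to 8.44 in SS 12 h lungs (median 8.33), against 6.90 to 8.22 in CTL 0 h lungs (median 7.94). The groups overlapped also without array 36, and the lowest control was array 56. The difference was 0.37 (SE 0.14, adjusted p = 0.121), and 0.39 (SE 0.06, adjusted p = 0.000585) without the 4 arrays. Probe sets that carry Nr1d1 and Dbp also name a second gene, and no value is given for either.

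The promoters of these genes are shown because the loops act through short sites in them. RefSeq promoters (GRCm38.p6, 250 bases before to 50 after a start) matched 14749 of the genes tested. The E-box letters CACGTG, which read the same on both strands, stood in 78 of 484 promoters of genes higher in both fits (16.1%), in 37 of 326 of genes lower in both fits (11.3%) and in 9.57% of all. Stretches of 100 bases before the start that hold E-boxes, in capitals, were as follows for 4 genes that rose.
Per1 (chr11:69098736-69098835, plus strand): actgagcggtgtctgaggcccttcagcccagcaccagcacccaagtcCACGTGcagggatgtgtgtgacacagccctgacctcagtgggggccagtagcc
Ciart (chr3:95882256-95882355, minus strand): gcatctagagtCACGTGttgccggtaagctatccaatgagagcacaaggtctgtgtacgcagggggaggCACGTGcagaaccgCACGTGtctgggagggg
Bhlhe41 (chr6:145865521-145865620, minus strand): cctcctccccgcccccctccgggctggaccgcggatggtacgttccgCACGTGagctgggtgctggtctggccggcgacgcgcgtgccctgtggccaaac
Tef (chr15:81802499-81802598, plus strand): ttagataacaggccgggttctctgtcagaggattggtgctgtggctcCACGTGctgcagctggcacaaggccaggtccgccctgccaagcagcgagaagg
The Ciart stretch holds 3 E-boxes and the others 1 each. In the letters searched, a D-box (TTATGTAA or TTACGTAA on either strand) stood in 1.11% of all promoters, in 1.65% of those of genes that were higher and in 1.23% of those of genes that were lower. Per3 has 2 of them, in capitals below.
Per3 (chr4:151044794-151044893, minus strand): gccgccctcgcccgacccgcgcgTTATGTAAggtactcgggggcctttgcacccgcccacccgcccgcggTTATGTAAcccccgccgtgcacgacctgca
An RORE (AGGTCA or GGGTCA with AANT before it, on either strand) stood in 4 of the 326 promoters of genes that were lower (1.23%), in 1 of the 484 of genes that were higher (0.207%) and in 0.386% of all. Arntl holds one just after its start, in capitals.
Arntl (chr7:113207528-113207557, plus strand): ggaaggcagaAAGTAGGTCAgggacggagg
These matches describe letters only, and the counts were not tested.

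The D-box factors split by role. Hlf and Tef, which encode activators at D-box sites, rose, and Nfil3, which encodes the repressor at the same sites, fell. Hlf ranged from 9.19 to 9.48 in SS 12 h lungs (median 9.36), against 7.47 to 9.37 in CTL 0 h lungs (median 7.56). Apart from array 36 the highest control was 7.76. Hlf differed by 1.57 (SE 0.19, adjusted p = 0.000351) and Tef by 1.40 (SE 0.19, adjusted p = 0.000424). Nfil3 ranged from 5.94 to 6.43 in SS 12 h lungs (median 6.20), against 6.08 to 7.86 in CTL 0 h lungs (median 7.58), and the lowest control after array 36 was array 56 at 6.76. It fell by 1.20 (SE 0.19, adjusted p = 0.000782).

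Enzymes that modify clock proteins stayed near 0. Of 8 measured kinases and ubiquitin ligases only Usp2, a deubiquitinase under clock control, rose, by 1.37 (SE 0.19, adjusted p = 0.000424). Csnk1e, a kinase of PERIOD proteins, differed by 0.13 (adjusted p = 0.0137), Csnk1d by 0.05, Fbxl21 by 0.11, Gsk3b by 0.06, Btrc by 0.04, Fbxw11 by 0.01 and Csnk2a1 by 0.00, none of which passed.

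Of 12 measured output genes 7 rose and none fell, and 8 rose without the 4 arrays. Wee1, the kinase that holds cells before mitosis, ranged from 9.30 to 10.05 in SS 12 h lungs (median 9.75), against 7.98 to 9.88 in CTL 0 h lungs (median 8.21). Array 36 alone of the controls was above 8.27. Wee1 rose by 1.41 (SE 0.20), Tspan4, a tetraspanin, by 1.37 (SE 0.18), and Tsc22d3, the glucocorticoid-induced leucine zipper, by 1.37 (SE 0.21). Smaller rises were those of Klf15 (0.93) and Klf9 (0.82), which encode steroid-responsive transcription factors, of Nampt (0.42), of the NAD salvage pathway, and of Alas1 (0.42), of heme synthesis. Pnpla2, a triglyceride lipase, differed by 0.29 (adjusted p = 0.0173), and by 0.38 (adjusted p = 0.00183) without the 4 arrays. The values were -0.30 for Cdkn1a, -0.24 for Lonrf3, -0.15 for Klf10 and 0.04 for Ppard, none past the threshold.

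The means of the hours between, with arrays as labelled, placed the clock genes along the light phase. In rising order of numbers, arrays 61 and 78 (labelled SS 3 h) took the place of SS 6 h. Array 66 (labelled SS 6 h) and arrays 10 and 28 (labelled SS 9 h) took that of sleep-deprived groups. The SD of Arntl was 0.76 at 3 h and 0.70 at 6 h, and the means were not computed without those arrays. Arntl averaged 8.53, 7.52 and 6.14 at 3, 6 and 9 h of undisturbed rest and Npas2 8.95, 7.59 and 6.50, so that most of their fall was reached by 9 h. Per2 averaged 7.40, 8.30 and 9.38 at the same hours, against a mean of 9.87 at 12 h. Bhlhe41 averaged 9.19 at 9 h, above its mean at 12 h, and Nfil3 averaged 5.92 at 9 h, below its mean at 12 h. Cry1 first stood at 6.96 and 7.01 at 3 and 6 h, under 8 of the 9 controls (array 56 was at 6.90), and at 7.75 at 9 h.

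Over the genes called in both fits, the means at 3 h had covered a median of 4.55% of the difference in the 606 genes that were higher and 11% in the 426 that were lower. At 6 h the medians were 19.5% for the genes that were higher and 38.7% for those that were lower, and at 9 h 62.3% for the higher and 73.4% for the lower genes. These shares describe genes chosen by their 12 h difference and use all labelled arrays. Among genes whose group means over the 5 times ran most like those of Arntl were Galnt16, Ccnjl, Olfr700, Dpy19l3 and Sh2d1b2 (Pearson r from 0.9984 to 0.9995 over 5 means, given as a description). Of these, only Ccnjl, with a range of 1.61 between means, and Dpy19l3, with 0.70, moved by more than 0.2.

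**Figure D2:**
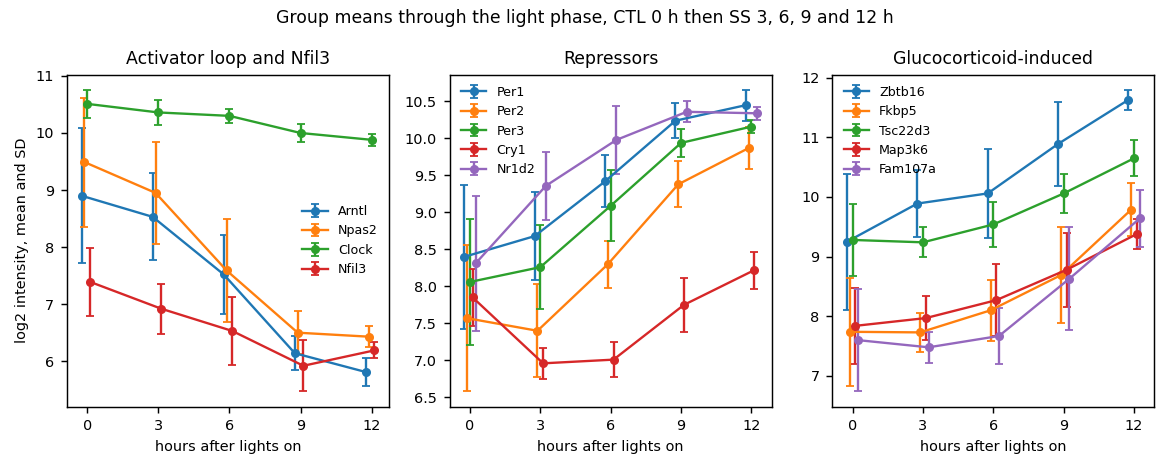
Mean log2 intensity with SD of clock, glucocorticoid-induced and other genes in CTL 0 h lungs (0 h) and in SS lungs at 3, 6, 9 and 12 h after lights on. The panel titled glucocorticoid-induced also holds Map3k6 and Fam107a, which are outside the lists and were named for their large rises. Arntl and Npas2 fell and Per2, Per3 and Nr1d2 rose across the light phase, and the wide bars at 0 h include array 36. Arrays are as labelled at every hour, and the SD of Arntl was 0.76 at 3 h and 0.70 at 6 h.

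Beside the clock, many genes that glucocorticoids switch on rose. Of 19 measured 11 rose and none fell, with a median difference of 0.76, beside 3.52% of all genes that rose. Without the 4 arrays 13 rose (median 0.90), beside 4.69% of all genes. The rest did not pass, and the lowest difference in the list was -0.30. Zbtb16, the transcription factor PLZF, had the highest difference of any gene called in both fits. It ranged from 11.27 to 11.78 in SS 12 h lungs (median 11.73), against 8.48 to 11.80 in CTL 0 h lungs (median 8.70). Array 36 held the 11.80 and array 56 stood at 10.48, above the remaining controls and below all SS 12 h lungs. The difference was 2.39 (SE 0.36, adjusted p = 0.000648), and 2.95 (SE 0.10, adjusted p = 6.71e-11) without the 4 arrays, a 7.74-fold higher intensity.

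Fkbp5, which encodes a co-chaperone that restrains the glucocorticoid receptor, ranged from 9.03 to 10.22 in SS 12 h lungs (median 9.96), against 7.12 to 10.10 in CTL 0 h lungs (median 7.51). Without array 36 no control exceeded 7.90. It differed by 2.05 (SE 0.32, adjusted p = 0.000726). Tsc22d3 and Klf9, named above among the outputs, belong to this list too, so the counts of these lists are not separate. Pik3ip1, a negative regulator of PI3K, and Arrdc2, an arrestin-domain gene, rose by 0.79 (SE 0.11) and 0.76 (SE 0.11). 

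Further rises of the same size were seen outside the lists. Fam107a, an actin-binding stress response gene, ranged from 8.63 to 10.09 in SS 12 h lungs (median 9.80), against 7.10 to 9.84 in CTL 0 h lungs (median 7.26), and differed by 2.04 (SE 0.31). Map3k6, a stress-activated kinase, differed by 1.54 (SE 0.21), and Hif3a, a hypoxia-inducible factor alpha subunit, by 1.51 (SE 0.23). In all 3 the control lungs other than array 36 lay below every SS 12 h lung. Mettl21e, a methyltransferase gene known from muscle in mice, differed by 2.28 (SE 0.32). The 9 skeletal muscle markers did not follow it, with a median difference of -1.11 and none past the threshold. Palindromic glucocorticoid response element letters (GNACA, a spacer of 3 bases and TGTNC, which read the same on both strands) stood in 5 of 484 promoters of genes that were higher (1.03%), in 0.307% of those of genes that were lower and in 0.468% of all. Fam107a and Map3k6 hold one each, in capitals.
Fam107a (chr14:8309842-8309941, minus strand): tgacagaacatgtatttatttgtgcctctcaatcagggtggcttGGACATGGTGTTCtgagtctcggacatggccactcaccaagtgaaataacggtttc
Map3k6 (chr4:133240593-133240692, plus strand): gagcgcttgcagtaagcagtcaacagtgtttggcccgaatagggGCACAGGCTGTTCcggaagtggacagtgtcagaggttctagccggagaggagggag

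**Figure D3:**
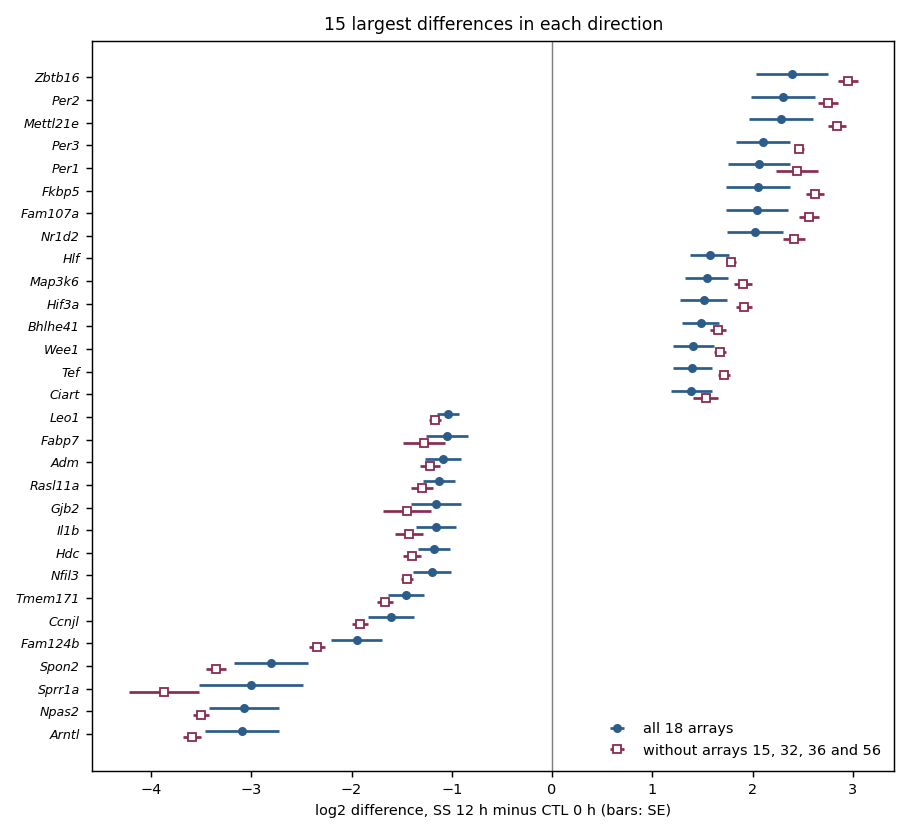
Log2 difference, SS 12 h minus CTL 0 h, with its SE for the 15 largest differences in each direction among genes called in both fits, with all 18 arrays (filled) and without arrays 15, 32, 36 and 56 (open). Differences run from -3.09 for Arntl to 2.39 for Zbtb16 with 18 arrays and are larger without the 4 arrays.

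Spon2 and Sprr1a fell farthest outside the clock. Spon2, a secreted matrix protein, ranged from 5.43 to 6.39 in SS 12 h lungs (median 5.78), against 5.62 to 9.31 in CTL 0 h lungs (median 9.06). The 8 controls other than array 36 stood at 8.81 or more, and array 56 was among them. The difference was -2.80 (SE 0.37, adjusted p = 0.000424), and -3.35 (SE 0.10, adjusted p = 8.37e-12) without the 4 arrays, a 10.2-fold lower intensity. Mean values of 8.59, 7.69 and 6.37 were measured at 3, 6 and 9 h.

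Sprr1a, a cornified envelope protein of stressed epithelium, varied widely among the controls. It ranged from 6.16 to 7.59 in SS 12 h lungs (median 6.48), against 6.6 to 11.63 in CTL 0 h lungs (median 9.75), and fell by 3.00 (SE 0.52, adjusted p = 0.00141). Its means at 3, 6 and 9 h were 8.83, 8.37 and 8.60. Among the controls Sprr1a was highest in arrays 39, 52 and 53 (11.63, 10.98 and 10.72). The skeletal muscle markers were highest in the same arrays (2.404, 2.08 and 1.925 above the mean of the 18 arrays). Array 16 had the highest level of these markers among SS 12 h lungs (0.672), with Sprr1a at 6.53. Whether RNA of muscle had a part in the fall of Sprr1a was not tested. Fam124b (-1.95), Ccnjl, a cyclin J relative (-1.61), and Tmem171, a membrane protein gene (-1.46), each had 8 controls above all SS 12 h lungs. The same held for Rasl11a, a small GTPase (-1.13), Adm, which encodes the vasodilator adrenomedullin (-1.09), Fabp7, a fatty acid carrier (-1.05), and Gjb2, connexin 26 (-1.16, adjusted p = 0.00583). Gjb2 no longer passed without any 1 of arrays 16, 17, 18, 19, 34, 35, 39, 52, 53 or 55 (-1.17 to -1.04), and Fabp7 without array 33 or 40 (-0.99 each). Like Sprr1a, Gjb2 was highest in arrays 39, 52 and 53 (8.45, 8.41 and 8.12). Leo1, a subunit of the PAF1 elongation complex, was the gene with the smallest adjusted p over 18 arrays. It ranged from 5.83 to 5.97 in SS 12 h lungs (median 5.89), against 6.09 to 7.23 in CTL 0 h lungs (median 7.02), with no overlap even with array 36 at 6.09. It differed by -1.04 (SE 0.11, adjusted p = 0.000259).

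Some transcripts of neutrophils and inflammation were lower at lights off. Of 14 genes of neutrophils and monocytes 6 fell and none rose, beside 2.38% of all genes that fell, with a median difference of -0.46, and 6 fell without the 4 arrays. The count was 1 to 3 when array 17, 18, 19, 33, 34, 35, 38, 52, 53, 54, 55 or 56 was left out alone. Cxcr2, the chemokine receptor of neutrophils, ranged from 6.89 to 7.54 in SS 12 h lungs (median 7.09), against 6.84 to 8.96 in CTL 0 h lungs (median 8.14). Array 36 was the lowest of all 18 and the other controls lay at 7.72 or more. Cxcr2 fell by 0.98 (SE 0.20, adjusted p = 0.00384), the protease gene Mmp9 by 0.85 (SE 0.17), the receptor gene Csf3r by 0.83 (SE 0.17) and Retnlg by 0.76 (SE 0.16). Among the 18 fits that left out a single array, Retnlg lost its call in 13, Csf3r in 7 and Mmp9 in 6. Ltf, the granule gene with high intensity, did not pass (-0.16, adjusted p = 0.734). The highest difference in the list was 0.43, and 0.58 without the 4 arrays, and no rise passed in either fit. In whole lung, fewer cells of a type and less RNA per cell cannot be told apart.

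Among 33 chemokines and NF-kB targets 6 fell and 1 rose (median -0.13), beside 2.38% and 3.52% of all genes. Without the 4 arrays 7 fell and 2 rose. Il1b, the inflammatory cytokine, ranged from 5.95 to 6.67 in SS 12 h lungs (median 6.33), against 6.18 to 7.99 in CTL 0 h lungs (median 7.56), and fell by 1.16 (SE 0.20, adjusted p = 0.00127). Cxcl5, a neutrophil attractant, fell by 0.89 (SE 0.16) and Cxcl15, lungkine of the airway epithelium, by 0.37 (SE 0.06). Nfkbia, the inhibitor of NF-kB, was the member that rose, by 0.47 (SE 0.09). Hdc, the enzyme that makes histamine in mast cells and basophils, fell by 1.18 (SE 0.16).

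**Figure D4:**
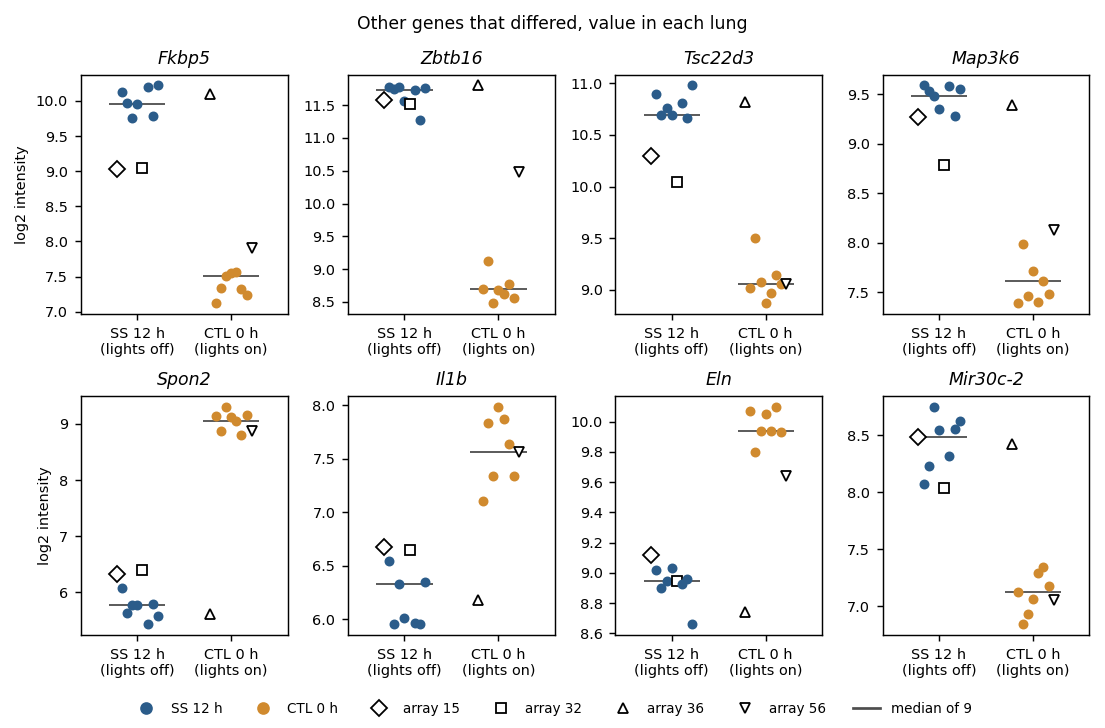
Log2 intensity of 8 further genes in each of the 9 SS 12 h lungs (left of each panel) and 9 CTL 0 h lungs (right), with group medians as lines and arrays 15, 32, 36 and 56 as open symbols. Fkbp5, Zbtb16, Tsc22d3, Map3k6 and Mir30c-2 lie higher and Spon2, Il1b and Eln lower in the SS 12 h lungs, with array 36 near them.

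Other blood cell markers differed in direction. Of 12 measured platelet genes 5 rose and none fell (median 0.35), and 6 rose without the 4 arrays. The counts in these cell types stand beside 3.52% higher and 2.38% lower among all genes. Nrgn, neurogranin, which platelets also carry, ranged from 8.81 to 9.35 in SS 12 h lungs (median 9.10), against 8.45 to 8.90 in CTL 0 h lungs (median 8.67), with overlap between the groups. It rose by 0.46 (SE 0.08, adjusted p = 0.0012). Alox12 (0.40) and Itga2b, the integrin of platelets (0.40), rose as well, as did Treml1 (0.36) and Gp9 (0.42). Gp9 lost its call in 14 of the 18 fits that left out a single array. Of 13 B cell genes 2 fell, Fcer2a by 0.61 (SE 0.14) and Ly6d by 0.84 (SE 0.19), and 6 fell without the 4 arrays, but none without array 15, 16, 17, 18, 33, 35, 52, 53, 55 or 56 alone. Cd79b, a chain of the B cell receptor, differed by -0.43 (adjusted p = 0.0116). None of 12 T cell genes or 11 NK genes passed.

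The resident cells of the lung showed little that moved as a list, with counts set beside 3.52% higher and 2.38% lower among all genes. Of 16 alveolar type 2 genes 3 fell, among them Abca3, the lipid transporter of lamellar bodies, by 0.31 (SE 0.06) and the complement gene Hc by 0.27 (SE 0.05), while Sftpc and Sftpa1 differed by 0.03 and 0.02. Of 22 endothelial genes 4 rose and none fell, with Lyve1 (0.42) and Ramp2 (0.25) among them, and without the 4 arrays 3 rose and 3 fell. Lyve1 passed in that fit too but lost its call in 14 of the 18 fits that left out a single array, and Ramp2 in 8. Of 14 ciliated cell genes none passed. Acta1, of skeletal muscle, averaged 7.32 ± 1.10 in SS 12 h lungs and 9.55 ± 2.22 in CTL 0 h lungs (SD, n = 9 each), and Alb, of liver, 7.80 ± 1.38 in SS 12 h lungs and 9.54 ± 1.78 in CTL 0 h lungs. Both genes varied widely within each group. The 12 liver markers had a median of -0.90 and none passed, and the part of such RNA in the results was not tested.

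**Figure D5:**
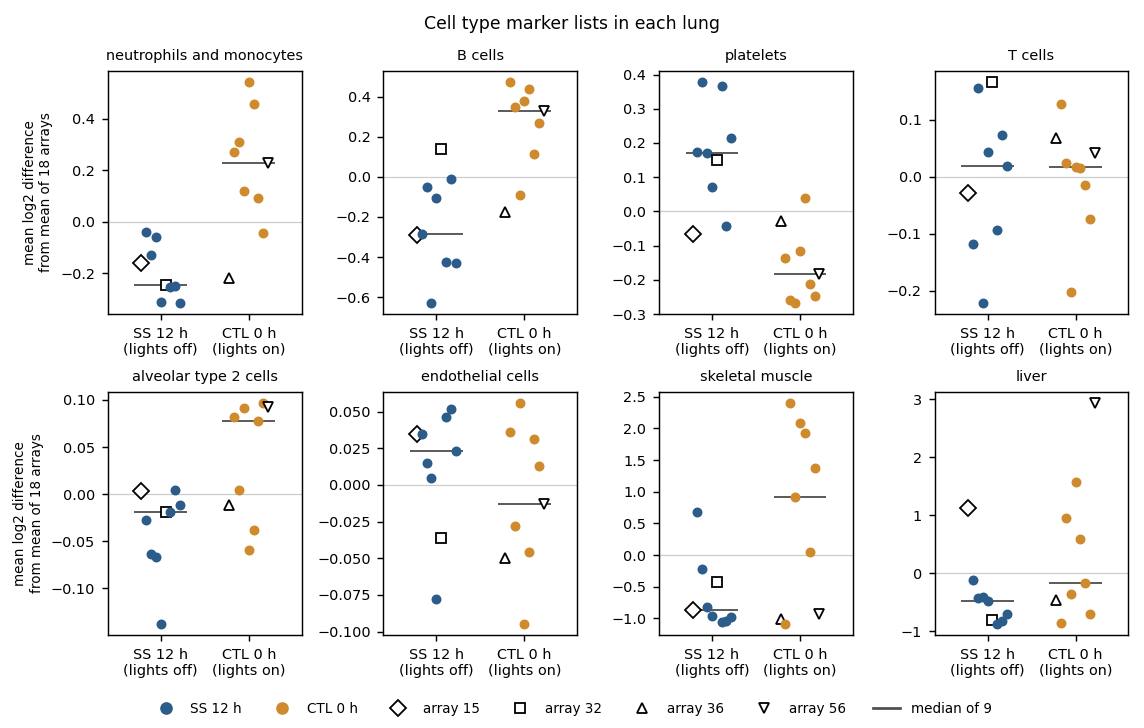
Mean level of 8 marker lists in each lung, as the log2 difference from the mean of the 18 arrays, for SS 12 h (left of each panel) and CTL 0 h (right), with group medians as lines and arrays 15, 32, 36 and 56 as open symbols. Neutrophil and monocyte genes have medians of -0.25 in SS 12 h lungs and 0.23 in CTL 0 h lungs, and platelet genes 0.17 in SS 12 h lungs and -0.18 in CTL 0 h lungs.

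Some protein folding genes fell. Of 44 measured folding genes of the endoplasmic reticulum 7 fell and 3 rose, beside 2.38% and 3.52% of all genes. Calr, the lectin chaperone calreticulin, ranged from 11.54 to 11.67 in SS 12 h lungs (median 11.59), against 11.64 to 12.05 in CTL 0 h lungs (median 11.95), and the 8 controls other than array 36 lay at 11.91 or more. It differed by -0.33 (SE 0.04, adjusted p = 0.000424). Hspa5, the BiP chaperone, fell by 0.42 (SE 0.07), while Fkbp14, a prolyl isomerase for collagens, rose by 0.79 (SE 0.11) and Herpud1, of the degradation machinery, by 0.57 (SE 0.08). In the cytosol Hsp90aa1, the inducible Hsp90, fell by 0.43 (SE 0.07), its co-chaperone Stip1 by 0.33 (SE 0.07) and Hspb1 by 0.54 (SE 0.12, adjusted p = 0.00805). Hspb1 did not pass without the 4 arrays (-0.56, adjusted p = 0.0186). Among the 18 fits that left out a single array, Stip1 lost its call in 13 and Hspb1 in 14. In counts, 2 of 14 genes of Hsp90 and its co-chaperones fell and 1 rose, which was Fkbp5, named above. Of 20 DnaJ partners and small heat shock proteins 1 fell, 1 of 11 of the Hsp70 family rose, and none of 8 CCT chaperonin genes passed. The Hsp70 family gene that rose was Hspa12b (0.31), while the median of its list was -0.09. Hsph1 (-0.63, adjusted p = 0.0198) and Hspa4l (-0.30, adjusted p = 0.0186) did not pass. The same shares of all genes, 2.38% lower and 3.52% higher, stand beside these counts. Rbm3, a cold-inducible RNA-binding protein, rose by 0.41 (SE 0.08). Cirbp, the other member of its list, did not pass (0.36, adjusted p = 0.124, and 0.30, adjusted p = 0.205 without the 4 arrays). None of 32 proteasome genes or 45 genes of the respiratory chain and ATP synthase passed.

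In the extracellular matrix 5 of 39 collagen and elastic fibre genes fell and none rose, beside 2.38% and 3.52% of all genes. Eln, elastin, ranged from 8.66 to 9.12 in SS 12 h lungs (median 8.95), against 8.74 to 10.10 in CTL 0 h lungs (median 9.94). All controls but array 36 stood at 9.64 or more. Eln fell by 0.85 (SE 0.14, adjusted p = 0.000947), Loxl1, which cross-links elastin, by 0.72 (SE 0.13), Col3a1 by 0.48 (SE 0.10) and Col5a1 by 0.27 (SE 0.05). Without the 4 arrays 7 fell and 1 rose.

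Of 19 transport genes 3 fell and 2 rose, and of 18 genes of vascular tone 1 fell and 3 rose. Among all genes 2.38% fell and 3.52% rose. Slc26a9, an anion channel of the airway, fell by 0.89 (SE 0.14), Slc26a4, the exchanger pendrin, by 0.79 (SE 0.13) and Kcne2, a potassium channel subunit, by 0.35 (SE 0.08), while Scnn1a, of the epithelial sodium channel, rose by 0.30 (SE 0.06). Avpr1a, a vasopressin receptor, fell by 0.99 (SE 0.15). Ptgis, prostacyclin synthase, rose by 0.34 (SE 0.05), Agtr1a, an angiotensin receptor, by 0.41 (SE 0.06) and Ednrb, an endothelin receptor, by 0.15 (SE 0.03). Without the 4 arrays Ednrb did not pass (0.14, adjusted p = 0.011), and Kcne2 lost its call in 14 of the 18 fits that left out a single array.

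Among metabolic genes 5 of 17 P450 and flavin monooxygenase genes rose and none fell, beside 3.52% and 2.38% of all genes, and without the 4 arrays 6 rose and 2 fell. Cyp2a5 rose by 1.05 (SE 0.21), Ephx1 by 0.37, Cyp2b10 by 0.36 and Fmo2 by 0.29. Angptl4, a PPAR target that inhibits lipoprotein lipase, rose by 1.12 (SE 0.22) and Cpt1a, of fatty acid oxidation, by 0.46 (SE 0.07), 2 of 24 genes in the list of fasting and PPAR targets. Pfkfb3, a regulator of glycolysis, rose by 0.91 (SE 0.12) and Pfkp, phosphofructokinase, fell by 0.36 (SE 0.07). Of 20 cholesterol synthesis genes 2 fell, Idi1 by 0.38 (SE 0.07) and Dhcr7 by 0.33 (SE 0.07), and Pmvk rose by 0.36 (SE 0.06). Dhcr7 lost its call in 12 of the 18 fits that left out a single array. Without the 4 arrays 12 of the 20 fell, and without array 36 alone 6 did. In the cell cycle list 2 of 31 rose, neither of which passed in the fit of all 78 arrays, and 1 fell, the mitotic checkpoint kinase gene Bub1, by 0.87 (SE 0.14). The fasting, cholesterol and cell cycle counts stand beside 3.52% higher and 2.38% lower among all genes.

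A pair of microRNA genes rose, which were picked after their values were seen. Mir30c-2 ranged from 8.04 to 8.75 in SS 12 h lungs (median 8.48), against 6.84 to 8.42 in CTL 0 h lungs (median 7.12), and Mir30a from 8.15 to 9.05 in SS 12 h lungs (median 8.57), against 7.13 to 8.56 in CTL 0 h lungs (median 7.45). Apart from array 36, all controls lay below all SS 12 h lungs in both. The differences were 1.15 (SE 0.17, adjusted p = 0.000501) and, for Mir30a, 1.08 (SE 0.17, adjusted p = 0.000856). The hairpins lie 19361 bases apart on chromosome 1. Mir30c-1 and Mir30e, on chromosome 4, have mature forms with the same seed and differed by 0.07 and -0.04 (adjusted p = 0.658 and 0.832). Mir26a-1 and Mir181b-2 rose by 0.57 (SE 0.10) and 0.59 (SE 0.11). Their mature 5p forms are given here from RefSeq (GRCm38.p6) with the seed, bases 2 to 8, in capitals, to show that the first pair share a seed.
miR-30a-5p (chr1:23272274-23272295, plus strand): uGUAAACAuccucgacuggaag
miR-30c-5p (chr1:23291714-23291736, plus strand): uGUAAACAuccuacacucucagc
miR-26a-5p (chr9:119031811-119031832, plus strand): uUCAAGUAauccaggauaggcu
miR-181b-5p (chr2:38853845-38853868, plus strand): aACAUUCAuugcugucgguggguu
Of 303 microRNA genes measured 8 rose and 1 fell (2.97%, against 5.89% of all genes), and 9 rose and 6 fell without the 4 arrays. Each probe set reads labelled total RNA at the gene and does not tell a mature microRNA from its precursor.

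Few genes passed between the SS 12 h mice and mice kept awake by gentle handling for the same 12 h (SD 12 h). In a fit of all 78 arrays, 25 of 18820 genes (0.133%) differed between SS 12 h and SD 12 h lungs (n = 9 and 8). In that fit 1786 genes had an unadjusted limma p under 0.05. Arntl averaged 5.81 ± 0.25 in SS 12 h lungs, against 6.67 ± 0.46 in SD 12 h lungs, a difference of -0.86 (SE 0.3, adjusted p = 0.303). This SE pools the spread of all groups as labelled, among them CTL 0 h (Arntl SD 1.18) and SS 3 h (0.76). No fit of SS 12 h and SD 12 h lungs alone was made. Per2 differed by 0.29 (adjusted p = 0.942), Zbtb16 by 0.05 (adjusted p = 0.999) and Fkbp5 by -0.15 (adjusted p = 0.99), none of which passed. Among those that passed were the platelet genes Alox12 (0.61), Nrgn (0.52), Itga2b (0.51) and Gp9 (0.61) and the chaperone gene Calr (-0.25, adjusted p = 0.00677). Nrgn averaged 9.10 in SS 12 h lungs, 8.58 in SD 12 h lungs and 8.64 in CTL 0 h lungs, and Calr 11.59 in SS 12 h lungs, 11.84 in SD 12 h lungs and 11.93 in CTL 0 h lungs. In the same fit SD 12 h minus CTL 0 h was -2.24 for Arntl, 2.01 for Per2, 2.34 for Zbtb16 and 2.19 for Fkbp5. What part rest had in these differences was not tested. The SS 12 h arrays are shared by the comparisons with CTL 0 h and with SD 12 h. The comparison of SD 12 h with CTL 0 h uses those same CTL 0 h and SD 12 h arrays.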

How the data were processed

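Whole lung RNA of 18 mice, 9 labelled SS 12 h and 9 labelled CTL 0 h, was taken from a series of 78 arrays. The authors deposited log2 intensities for 35556 probe sets, made by RMA, whose version is not given in the sources used here. RMA corrects background, gives all arrays a common distribution and combines probes, so that a shift of all genes cannot be seen. The deposited numbers lack their decimal point, and putting it back gave values of 2.27 to 13.85 and array medians of 6.45 to 6.78. No further normalization was applied. The number of mice limits the precision.

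The platform annotation gives 1 symbol to 21218 probe sets, several to 1881 and none to 12457. A gene (18820 in all) is its probe set with the highest mean, and 1386 genes have more than 1. Of 927 names in 49 lists 843 were matched. The groups were compared with limma 3.58.1 (R 4.3.3, lmFit and eBayes), with Benjamini-Hochberg adjustment over all probe sets and a threshold of 0.01. The procedure was tested on simulated data.

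The comparison, the lists and the rule for named genes were chosen with earlier results of these data known. Named were all measured clock genes, the 15 largest differences in each direction among genes called with and without arrays 15, 32, 36 and 56, up to 4 members per other list with the smallest p, the 2 most abundant markers of each cell type and the 5 genes most like Arntl over time. Alternatives left out these 4 arrays or each array, fitted all 78 arrays, took the 4 runs of array numbers (15 to 19 and 32 to 35, SS 12 h, and 36 to 40 and 52 to 56, CTL 0 h) as a random block, filtered at a mean of 6, weighted arrays, used trended and robust variances, normalized again by quantiles or medians, or counted a gene when any probe set passed. No run holds both groups, so run and group cannot be told apart within runs. Sequences are from RefSeq tables, read in Python with pandas 2.3.3.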

Additional observations from a re-analysis of the deposited data

Results flagged for a closer look

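Among 259 named genes, samples that stood apart from the other 8 of their group were sought in both groups by Dixon's test, which sets the gap to the nearest sample against the range of the group. Chance marks about 1 in 20 groups. Of 518 groups 91 were marked (17.6%).

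Array 36, labelled CTL 0 h, was the sample that stood apart in 66 of them, among them Arntl, Npas2, Per2 and Hlf, where it took the SS 12 h level. Of the other CTL 0 h arrays, array 56 stood apart in 2 genes (Cry1, low, and Klf10, high), array 40 in 2 (Hspa4l and Oas2, both high), array 52 in 1 (Lyz2, low) and array 55 in 1 (Sh2d1b2, high).

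Of the SS 12 h arrays, array 32 stood apart in 6 genes, with Map3k6, Ddit4, Angptl4, Lyz2 and Cyp2f2 low and Gfpt1 high. Array 15 stood apart in 5 genes, all high, of which Alb, Serpina1c and Cps1 are liver markers and Tagln is a smooth muscle marker, beside Ccnjl. Array 16 stood apart in 4 (Acta1 and Tnni2, of skeletal muscle, Dhcr7 and Ddx58, all high), array 18 in 2 (Txnip and Myl7, low), array 19 in 1 (Nupr1, low) and array 35 in 1 (Eln, low). What set these samples apart was not tested.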

How the results depend on the processing

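The count of genes that were higher (662 with 18 arrays) stayed within 1.5 times under 9 of the 10 alternatives besides those leaving out a single array. It was 996 with array weights. The count that were lower (447) was 1040 without arrays 15, 32, 36 and 56, 922 without them and with runs as a random block (chosen after seeing the data), and 935 with array weights. With single arrays left out, genes that were higher ran between 437 and 1015 and genes that were lower between 244 and 944. The highest counts came without array 36 and the lowest without array 55. Counts of lower genes moved by over 1.5 times also without arrays 17, 18, 19, 33, 35, 40, 52, 53 or 54 (266 to 296). The cause was not tested. The direction of the 134 named genes that passed or belong to the clock was kept throughout, except in Csnk2a1 and Fbxw11, which did not pass and whose values were -0.03, -0.02, -0.01, 0.00, 0.01 or 0.03 under the alternatives. In the fit of all 78 arrays Stip1, Hspb1, Pmvk, Dhcr7, Gfpt1, Gfpt2, Fcer2a, Ly6d, Retnlg, Alox12, Gp9, Ramp2, Ccne1 and Mcm6 no longer passed, with arrays centred on their median Gp9, Thbd, Kcne2, Hspb1 and Gfpt2 did not, with quantile normalization again Gp9 and Gfpt2, and without arrays 15, 32, 36 and 56 Hspb1, Gfpt2 and Ednrb. Of the named genes that passed with 18 arrays 23 lost the call without at least 1 single array, among the clock genes and largest differences only Gjb2 (10 arrays) and Fabp7 (2 arrays).

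Leaving out single arrays lowered the count of neutrophil and monocyte genes that fell (6) to between 1 and 3 for arrays 17, 18, 19, 33, 34, 35, 38, 52, 53, 54, 55 and 56, and the B cell count (2) was 0 without arrays 15, 16, 17, 18, 33, 35, 52, 53, 55 or 56, and 7 without array 36. Counts of lower folding genes of the endoplasmic reticulum (7) were 3 or 4 without arrays 34, 35, 52, 53, 54 or 55. Arrays have no read depth. Values near the lowest intensities, such as Cxcl5 at 4.06 in SS 12 h lungs, lie close to background. No paired analysis was possible because the groups share no replicate numbers.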
